A study of Mus musculus with 12 samples.

Results

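Of 54532 genes counted in mouse eosinophils, 121 protein-coding genes met a rule for lower abundance with interleukin-33 (IL-33) both without and with an antibody against Siglec-F. The rule took protein-coding genes with a mean of at least 100 normalized counts in the isotype group. It kept those whose mean with IL-33 was at most 0.6 times the isotype mean and whose mean with antibody plus IL-33 was at most 0.6 times the mean with the antibody alone. Normalized counts are the authors' read counts divided by a size factor for each library. Of 22046 protein-coding genes, 8192 reached the isotype minimum and are called the expressed coding genes here. Of these, 259 met the first ratio, 397 met the second and 126 met both. The polycomb genes Cbx2 and Cbx8, the peptidylarginine deiminase Padi2, the integrin Itgb7 and the lysosomal sulfatase Sgsh met both ratios and were left out by name. Naaa, which was left out by name as well, did not meet the rule, with an IL-33 to isotype ratio of 0.701.

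The cells were splenic eosinophils of the IL-5tg_4get/C57BL/6 strain, sorted for high side scatter and the 4get reporter, and RNA was measured by sequencing in 12 libraries. An IL-5 transgene drives the eosinophilia of these mice, and the 4get allele marks IL-4-producing cells with GFP, so all groups came from an IL-5-rich host. After 4 h of culture, 3 libraries each represented cells given antibody plus IL-33, IL-33, the anti-Siglec-F antibody, or an isotype antibody. IL-33 was recombinant murine protein at 10 ng/mL, and the antibody (clone E50-2440) and its rat IgG2a control were used at 5 µg/mL. The labels give no age of the mice, and they leave unstated whether cells given IL-33 alone also received the isotype antibody. Whether the 3 libraries of each group represent different mice or different cultures is not stated either, so the p-values rest on a spread that may be technical.

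IL-33 is an alarmin of the IL-1 family that barrier cells release on damage. It binds ST2 and the IL-1 receptor accessory protein, and MyD88 and IRAK kinases then carry the signal to NF-kB and MAP kinases. Eosinophils carry ST2, and IL-33 is known to prolong their survival and to induce cytokines in them. Siglec-F is a sialic acid-binding receptor of eosinophils with inhibitory motifs in its tail. A lower transcript level within hours can follow from less transcription, faster decay, or both, and a count of reads does not separate these.

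Total counts ran from 11686603 to 17137988 per library. Libraries 2 and 3 of the group given both stimuli stood apart, with 15555 and 29990 genes detected, against 19138 to 24485 in the other 10 libraries. The 19 eosinophil genes of a list summed to 17200 to 26200 CPM (counts scaled to a common library size) with both stimuli, 13700 to 19300 with IL-33, 16700 to 21400 with the antibody and 14700 to 20400 with isotype. The 12 monocyte and macrophage markers summed to 1170 to 1730 CPM with both stimuli, 943 to 1360 with IL-33, 755 to 969 with the antibody and 616 to 716 with isotype. Of 11 tested, 2 were called higher in each arm of the rule. Csf1r made up most of the sum, at 944 to 1070, 790 to 945, 519 to 732 and 407 to 467 CPM in the same order of groups, while Ccr2 was at 2.94 to 6.79, 8.03 to 10.6, 7.74 to 8.58 and 9.99 to 11.5 CPM. The 9 basophil and mast cell markers summed to 509 to 1200, 318 to 750, 564 to 823 and 286 to 426 CPM, again in that order. Hdc and Gata2 made up most of this sum. Hdc was at 310 to 950, 162 to 521, 388 to 598 and 141 to 236 CPM. Gata2 was at 186 to 225, 132 to 209, 155 to 198 and 116 to 151 CPM. Mcpt8 was low and overlapped between groups, at 1.46 to 4.77, 1.44 to 4.41, 1.2 to 2.14 and 1.44 to 3.14 CPM. Cpa3 did so too, at 1.17 to 2.93, 1.26 to 2.74, 2.22 to 2.41 and 1.33 to 2.48 CPM. The 13 T cell and ILC2 markers summed to 35.2 to 48.4, 33.3 to 147, 37.8 to 58.5 and 41.0 to 71.3 CPM. The 11 neutrophil markers overlapped between groups, at 865 to 1900 CPM with both stimuli, 478 to 1550 with IL-33, 1090 to 2230 with the antibody and 980 to 2180 with isotype. The 10 B and plasma cell markers did so too, at 569 to 876, 613 to 1240, 684 to 874 and 722 to 1130 CPM in the same order of groups. The 8 dendritic cell markers summed to 449 to 596, 431 to 568, 405 to 803 and 332 to 561 CPM. Of 5 tested, 1 was called higher in each arm of the rule. Itgax made up most of this sum, at 363 to 469, 373 to 511, 378 to 763 and 310 to 542 CPM. Batf3 was at 59.3 to 118, 28.1 to 52.4, 19.5 to 36.6 and 15.1 to 17.9 CPM. The NK cell markers summed to 2.34 to 11.4, 1.70 to 8.18, 2.65 to 5.00 and 2.94 to 5.24 CPM, and Ncr1 among them was at 0 CPM in every library given the antibody alone or isotype. The erythroid markers summed to 15.5 to 30.2, 11.6 to 19.0, 8.94 to 14.7 and 5.88 to 17.5 CPM. Those of megakaryocytes and platelets summed to 53.2 to 185, 68.1 to 88.6, 89.9 to 133 and 94.3 to 124 CPM. The part of other cells in the results was not tested, and in bulk RNA fewer cells of a type and less RNA per cell cannot be told apart.

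The promoters of 4 members are shown because Mettl7a1 and Fbxo31 mark the set and had IL-33 to isotype ratios among its 3 lowest, while Adra2a and Padi4 were among its 8 most abundant genes. Each runs 5′ to 3′ on the gene's own strand, from 250 bases before to 50 after the annotated start, as RefSeq gives it on GRCm38.p6. They lie at chr15:100304567-100304866 on the plus strand for Mettl7a1, chr8:121578757-121579056 on the minus strand for Fbxo31, chr19:54045009-54045308 on the plus strand for Adra2a and chr4:140774154-140774453 on the minus strand for Padi4. Capitals mark every match to a searched motif, on either strand.
Mettl7a1: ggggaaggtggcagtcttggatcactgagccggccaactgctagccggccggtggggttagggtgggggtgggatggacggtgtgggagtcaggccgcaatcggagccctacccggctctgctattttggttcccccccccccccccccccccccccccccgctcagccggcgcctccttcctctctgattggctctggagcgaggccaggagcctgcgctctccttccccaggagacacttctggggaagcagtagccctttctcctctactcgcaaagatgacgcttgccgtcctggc
Fbxo31: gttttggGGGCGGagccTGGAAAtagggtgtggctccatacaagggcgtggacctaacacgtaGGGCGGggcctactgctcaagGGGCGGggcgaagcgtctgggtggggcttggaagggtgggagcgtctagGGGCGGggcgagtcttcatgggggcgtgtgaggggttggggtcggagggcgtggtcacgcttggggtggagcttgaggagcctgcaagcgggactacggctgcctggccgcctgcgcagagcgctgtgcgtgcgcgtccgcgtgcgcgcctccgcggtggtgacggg
Adra2a: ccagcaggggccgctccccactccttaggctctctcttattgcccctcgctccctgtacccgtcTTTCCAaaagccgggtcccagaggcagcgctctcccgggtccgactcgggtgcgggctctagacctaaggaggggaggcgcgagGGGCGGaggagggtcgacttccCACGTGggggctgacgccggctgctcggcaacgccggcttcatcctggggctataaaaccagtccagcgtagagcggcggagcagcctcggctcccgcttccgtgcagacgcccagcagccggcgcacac
Padi4: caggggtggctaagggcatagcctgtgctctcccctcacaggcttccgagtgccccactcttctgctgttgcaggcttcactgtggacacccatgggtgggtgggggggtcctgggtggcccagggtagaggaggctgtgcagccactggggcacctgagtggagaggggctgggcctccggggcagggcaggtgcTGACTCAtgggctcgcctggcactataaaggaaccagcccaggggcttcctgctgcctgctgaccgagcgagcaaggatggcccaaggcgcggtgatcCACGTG

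The letters searched for AP-1 were TGANTCA, for CRE factors TGACGTCA and for E-box factors CACGTG. For ETS factors they were ACCGGAAGT, for FOXO factors GTAAACA, for KLF and SP1 factors (KLF/SP1) GGGCGG, for PU.1 GAGGAAGT and for GATA factors AGATAA. For C/EBP factors they were TTGCGCAA, for STAT factors TTCNNNGAA, for E2F factors TTTCGCGC, for SMAD factors GTCTAGAC and for NFAT factors TGGAAA. NF-kB and NRF1 were searched by their names. None of them matched in the Mettl7a1 window. This window begins at 100304567, downstream of the gene's start at 100304140 in the authors' table, so sequence around that start was not searched. The Fbxo31 window held 4 KLF/SP1 matches, at -243, -187, -166 and -117 from the start, and an NFAT match at -233. Adra2a had NFAT, KLF/SP1 and E-box matches at -186, -102 and -80. Padi4 had an AP-1 match at -54 and an E-box at 45, inside the transcript. Of 6604 expressed coding genes with a promoter in the table, 68.2% held KLF/SP1, 15.6% NFAT, 11.1% an E-box and 4.60% AP-1. Promoters were found for 94 of the 121 members, too few for a comparison of the set with other genes, which is therefore void.

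**Figure D1:**
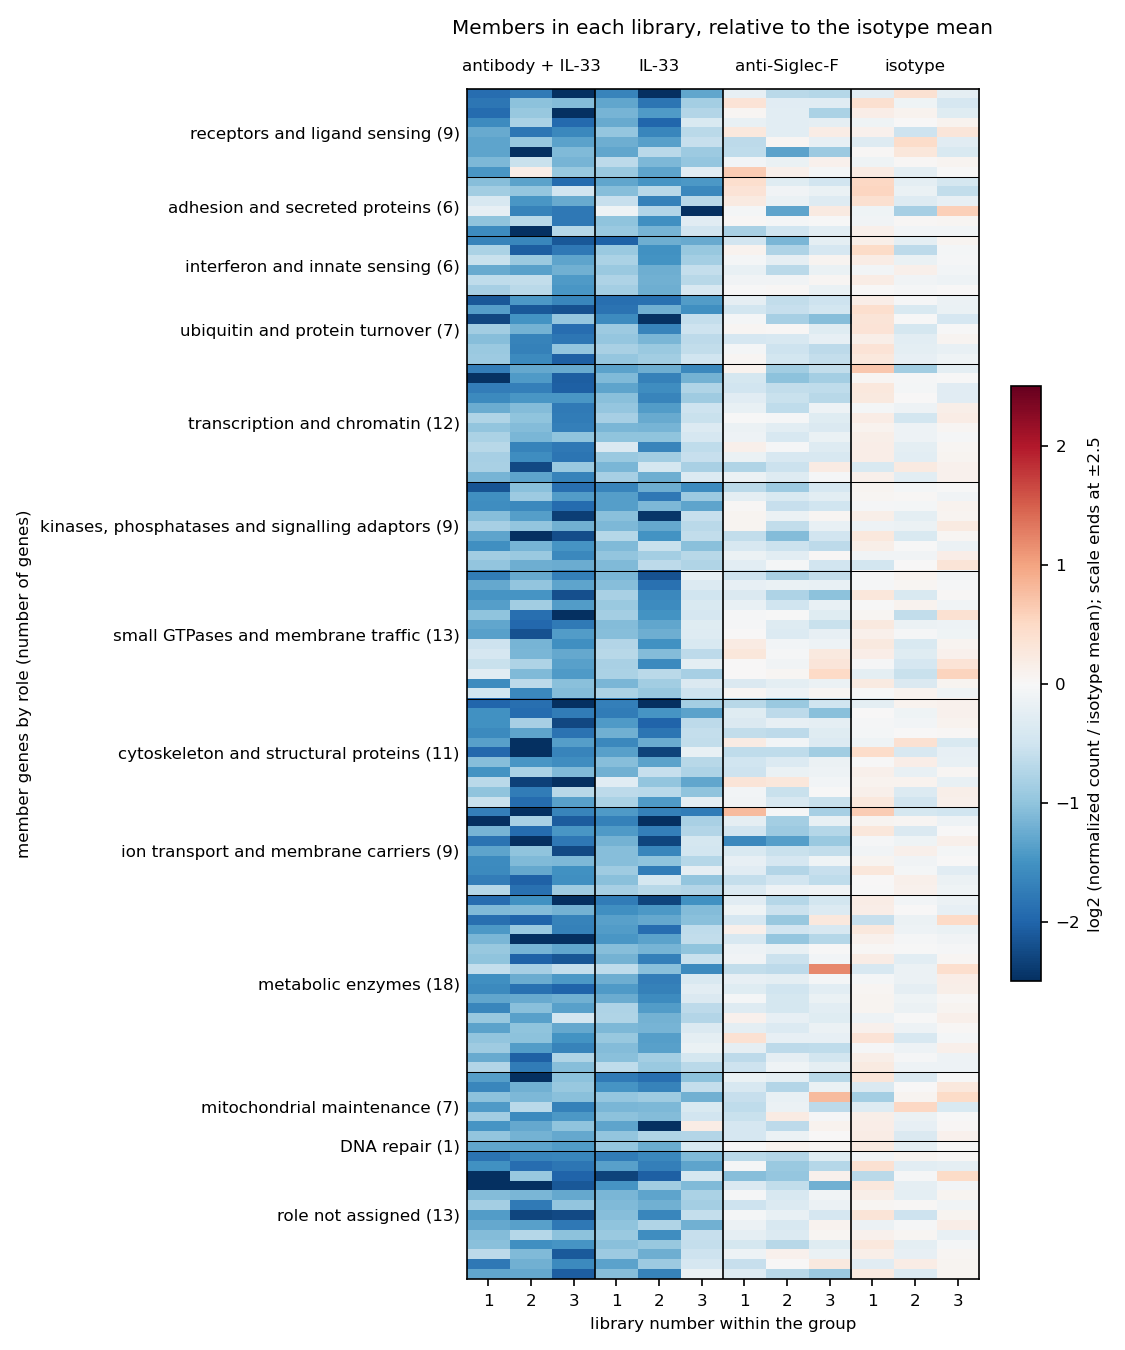
Each row is a member gene, grouped by role with the number of genes, and each column a library; colour gives the log2 ratio of normalized count to the gene's isotype mean. The libraries given both stimuli or IL-33 are blue throughout most rows, IL-33 library 3 is the palest of these 6, and the antibody libraries are faintly blue.

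The members were lower by similar factors in both arms of the rule, which is what chose them and is given as a description. The ratio of means for IL-33 over isotype ran from 0.285 to 0.599 with a median of 0.517. That for both stimuli over the antibody ran from 0.224 to 0.599 with a median of 0.494. Ratios of 0.5 or less were seen for 52 members in the first arm, 66 in the second and 38 in both. Just inside the first threshold lay Cep164 at 0.599, Ap3m2 at 0.598 and Ganc at 0.597, and just outside it Elk3 at 0.602, 9930111J21Rik2 at 0.605 and Ttc38 at 0.608. For the second threshold Pink1 at 0.599, Zfp101 at 0.597 and Cbr1 at 0.596 lay inside, and Ndrg1 at 0.601, Espl1 at 0.602 and Nacc2 at 0.603 outside.

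The members were moderately abundant genes. Their isotype means had a median of 456 normalized counts, against 604 for the expressed coding genes. Per kilobase of gene length the medians were 97.5 and 135 normalized counts. Together they took 0.327%, 0.317% and 0.222% of all counts with both stimuli and 0.359%, 0.313% and 0.529% with IL-33. They took 0.714%, 0.657% and 0.677% with the antibody and 0.892%, 0.776% and 0.832% with isotype. All 121 passed edgeR's filter on low counts, which 14547 genes passed, though 1 member went as low as 4 counts in a library.

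The depth of the drop differed between libraries of a group. The median member stood at 0.407, 0.398 and 0.346 times its isotype mean in the 3 libraries given both stimuli, and at 0.477, 0.395 and 0.638 times in the 3 given IL-33. It stood at 0.870, 0.758 and 0.835 times with the antibody and at 1.09, 0.918 and 0.998 times in the isotype libraries themselves. Of the 3 IL-33 libraries, library 3 was the highest for 91 members and library 2 the lowest for 81. How many members had both was not counted. The median SD of log2 normalized counts among members was 0.421 with both stimuli, 0.422 with IL-33, 0.217 with the antibody and 0.212 with isotype. Over the expressed coding genes it was 0.326, 0.204, 0.169 and 0.149 in the same order of groups. Without IL-33 library 2 the rule gave 79 genes, 74 of them members, and without IL-33 library 3 it gave 172, 116 of them members. Without libraries 2 and 3 of both stimuli it gave 135 genes, 86 of them members. Of the 121 members, 45 remained whichever library was left out.

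**Figure D2:**
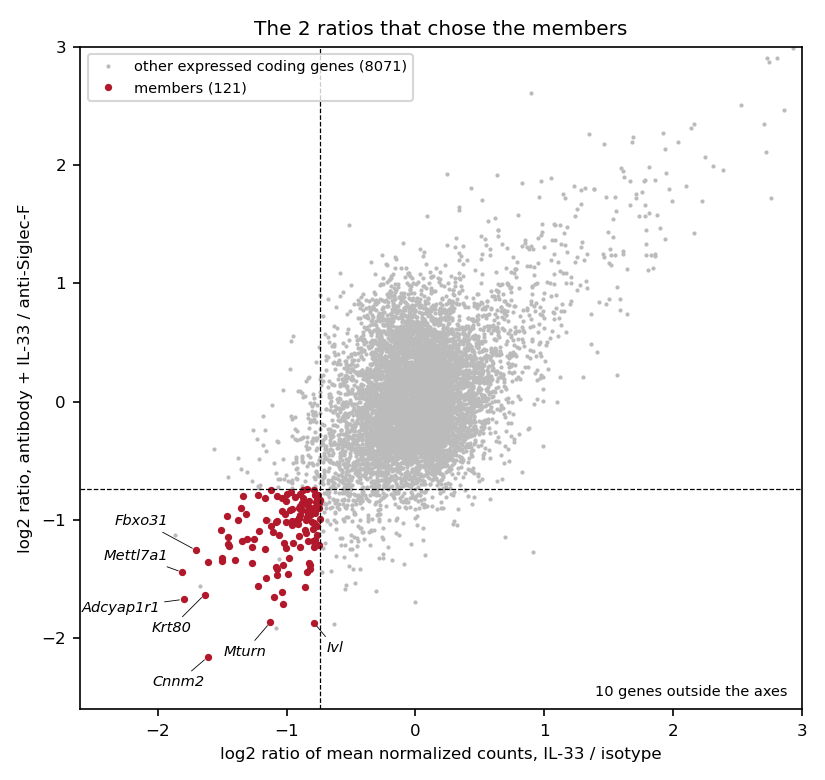
Each point is an expressed coding gene; the x axis is the log2 ratio of mean normalized counts, IL-33 over isotype, and the y axis that of both stimuli over the antibody. Dashed lines mark the ratio of 0.6 on each axis, the 121 members are the red points below and left of both, and 10 genes lie outside the axes.

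Adjusted calls are listed for both arms as a background and support nothing, since these contrasts chose the genes. In edgeR's quasi-likelihood test with Benjamini-Hochberg adjustment over all genes, 35 members were called lower with IL-33 against isotype, where 0.749% of all genes tested were. With the replicate number as a block in the fit to all 12 libraries, 44 members were called, and 30 of these were among the 35. There 127 of all genes were called lower, against 109 without the block. The block shares 1 replicate effect among all 4 groups, so it is not a paired fit of these 2 groups alone. In other comparisons same-numbered libraries correlated as low as -0.269, for library 3 of both stimuli and IL-33. For both stimuli against the antibody 71 were called lower, against 1.72% of all genes. For both stimuli against isotype, which joins the same groups, 107 were called lower, against 4.41%. Libraries of the 2 groups did not overlap for 110 members with IL-33 against isotype, where this held for 15.3% of expressed coding genes. The same was true of 113 members for both stimuli against the antibody, and of 12.6% of expressed coding genes. The 35 calls became 10, 15 and 67 without IL-33 library 1, 2 and 3, where 18, 26 and 181 of all genes were called lower. They became 9, 15 and 15 without isotype library 1, 2 and 3, where 19, 24 and 24 of all genes were. The 71 calls became 13, 21 and 20 without antibody library 1, 2 and 3, where 26, 37 and 54 of all genes were called lower. They became 19 without library 3 of both stimuli, where 59 of all genes were. The 107 became 66 without isotype library 1, where 186 of all genes were. In the reported fit 109, 250 and 641 of all genes were called lower in these 3 comparisons. Without libraries 2 and 3 of both stimuli together the member medians of log2 fold change were -0.95, -0.98 and -1.29, against -0.97, -1.04 and -1.37. Called whichever library was left out were 8 members in the first arm, namely Dck, Fam117a, Fbxo31, Frat1, Mettl7a1, Sgk1, Tcp11l2 and Tmem71. In the second arm they were 12, and Fam117a, Fbxo31, Frat1, Mettl7a1 and Tmem71 were on both lists.

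The lowest IL-33 to isotype ratio of the set, 0.285, belonged to Mettl7a1 (chromosome 15, 100304140 to 100328662 in the mm10 coordinates of the authors' table), a methyltransferase-like membrane protein of the endoplasmic reticulum and lipid droplets whose promoter is printed above. It had 464, 604 and 309 normalized counts with both stimuli, 518, 353 and 610.2 with IL-33, 1424, 1062 and 1258 with the antibody and 1981, 1655 and 1559 with isotype. All 6 libraries with IL-33 lay below all 6 without it, and the antibody libraries lay below the isotype ones. Its log2 fold change was -1.83 (SE 0.247) for IL-33 against isotype and -1.46 (SE 0.245) for both stimuli against the antibody. Of 21 tested genes with a Mettl symbol, Mettl7a1 was the only one called lower in either arm.

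**Figure D3:**
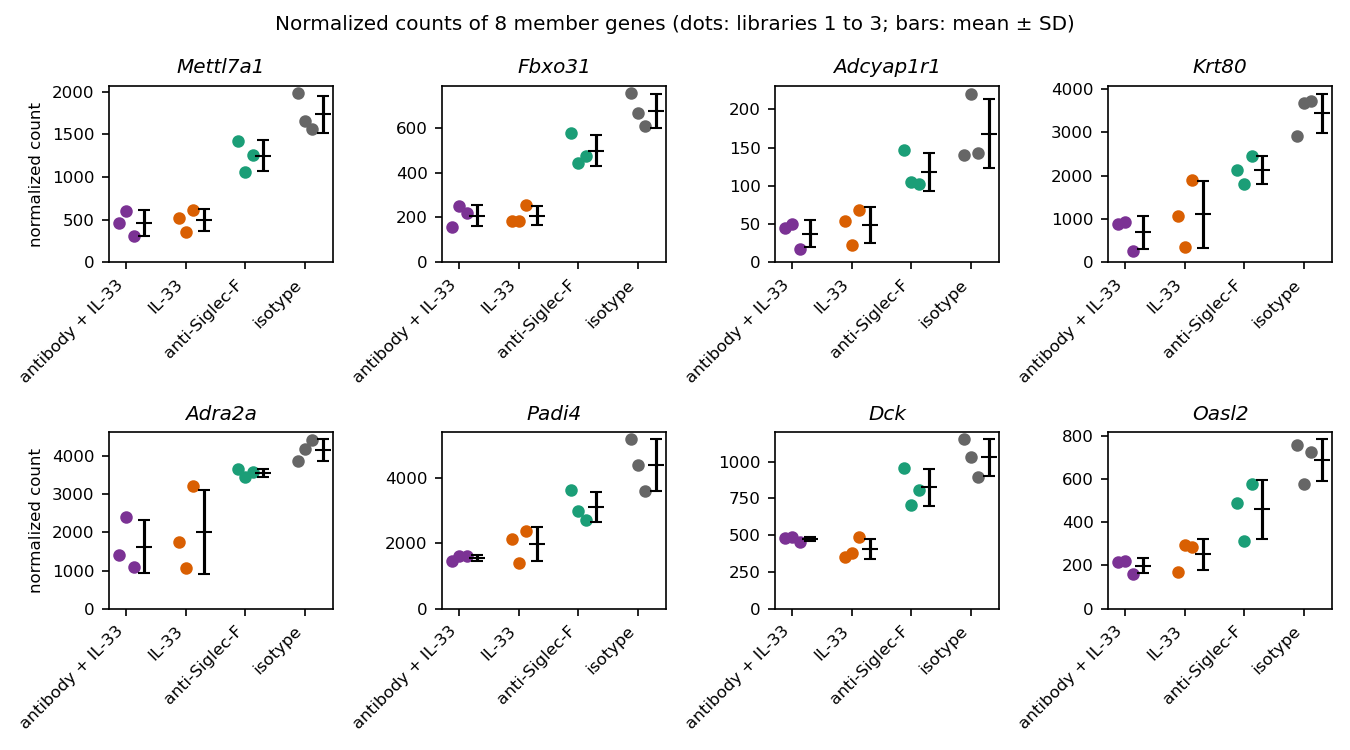
Dots are the normalized counts of 8 members in libraries 1 to 3 of each group, and bars give the mean and SD beside them. Mettl7a1 and Fbxo31 separate the libraries with IL-33 from those without, while Krt80 and Adra2a spread widely within the IL-33 group, where library 3 is the highest.

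Roles were assigned after the members were known. Of all members 28.9% were called lower with IL-33 and 58.7% with both stimuli against the antibody, where 0.749% and 1.72% of all genes tested were. Called higher in the same contrasts were 1.46% and 2.7% of all genes tested. These contrasts chose the members, so the counts by role here and below are a description from which no difference between roles is read. Of 9 receptors and ligand sensors, 3 were called lower with IL-33 and 4 with both stimuli against the antibody. Adcyap1r1, the receptor for the neuropeptide PACAP, had the second lowest IL-33 to isotype ratio of the set. Its call with IL-33 was not kept with the replicate block (adjusted p = 0.0586 in edgeR), nor was that of Klrb1f (adjusted p = 0.0571 in edgeR), while Il1rl2 was called there (adjusted p = 0.0183 in edgeR). Adcyap1r1 measured 44.6, 49.6 and 16.8 normalized counts with both stimuli, 53.6, 22.6 and 68.7 with IL-33, 146, 105 and 103 with the antibody and 141, 220.3 and 143 with isotype. Adra2a (chromosome 19, 54045182 to 54048982 in the mm10 coordinates of the authors' table), the alpha-2A adrenergic receptor, was the most abundant receptor. Its values were 1401, 2400 and 1084 with both stimuli, 1747, 1054 and 3206 with IL-33, 3664, 3449 and 3580 with the antibody and 3870, 4185 and 4430 with isotype. The libraries with IL-33 all lay below those without and varied widely among themselves, with library 2 the lowest and library 3 the highest of the IL-33 group. Other G protein-coupled receptors in the set were Ednra for endothelin, Chrm1 for acetylcholine, Ltb4r2 for leukotriene B4 and the orphan Gpr160.

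Both receptors of the IL-1 receptor family in the set had low counts. Il1rl2, the receptor for IL-36, had 88.2, 60.0 and 68.9 normalized counts with both stimuli, 108, 67.7 and 131 with IL-33, 252, 174 and 239 with the antibody and 225, 146 and 258 with isotype. Its groups with and without IL-33 did not overlap. Sigirr, a family member that restrains IL-1 and Toll-like receptor signalling, had 52.7, 4.62 and 61.4 with both stimuli, 53.6, 82.8 and 70.6 with IL-33, 84.8, 52.4 and 70.1 with the antibody and 134, 161 and 101 with isotype. With both stimuli it ranged widely, its libraries overlapped those given the antibody, and it was called in neither arm. Klrb1f, a C-type lectin-like receptor, measured 87.2, 149 and 143, 124, 86 and 169, 386, 250.2 and 252 and 403, 284 and 228 in the same order of groups.

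Among 6 adhesion and secreted proteins, 1 was called lower with IL-33 and 2 with both stimuli against the antibody. Selp, P-selectin, had 109.5, 53.1 and 60.5 normalized counts with both stimuli, 97.2, 45.1 and 90.4 with IL-33, 169.7, 130 and 117 with the antibody and 193, 117 and 126 with isotype, and it was called in neither arm. Tgfbi, a matrix adhesion protein, stood at 1687, 2108 and 991 normalized counts with both stimuli, 1694, 1171 and 2790 with IL-33, 3483, 3289 and 3395 with the antibody and 3201, 3494 and 3526 with isotype. Emb, a cell adhesion glycoprotein, the metalloprotease Adamts10 and Jchain were also in the group.

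Jchain, which links immunoglobulin polymers and is a marker of plasma cells rather than eosinophils, had 137, 49.6 and 45.6 normalized counts with both stimuli, 145, 94.6 and 13.2 with IL-33, 151, 63.4 and 183 with the antibody and 147, 87.9 and 237 with isotype. Its groups overlapped widely, 1 IL-33 library brought its mean down, and it was called in no comparison. No other gene on the marker lists used here was a member.

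Of 6 genes of interferon response and innate sensing, 4 were called lower with IL-33 and 5 with both stimuli against the antibody. The shares over all members were 28.9% and 58.7%, and over all genes tested 0.749% and 1.72%. Oasl2, an interferon-induced 2′-5′-oligoadenylate synthetase-like protein, had 217, 222 and 158 normalized counts with both stimuli, 169.8, 297 and 285 with IL-33, 489.6, 311 and 577 with the antibody and 759, 577 and 724 with isotype. Its libraries with IL-33 all lay below those without. Nlrp12, an NLR protein reported to restrain NF-kB signalling, had 998, 768 and 583 with both stimuli, 846, 519 and 813 with IL-33, 1415, 1254 and 1522 with the antibody and 1651, 1294 and 1428 with isotype. The RNA sensor relative Dhx58, the antiviral adaptor Trim14 and Peli2, a ubiquitin ligase of Toll-like and IL-1 receptor signalling, had lower means with IL-33 too.

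The ubiquitin and protein turnover group held 7 members, led by Fbxo31 (chromosome 8, 121549440 to 121578806 in the mm10 coordinates of the authors' table), an F-box substrate receptor that in human cells directs cyclin D1 to degradation after DNA damage. Fbxo31 had 156, 252 and 218 normalized counts with both stimuli, 183, 185 and 256 with IL-33, 577, 442 and 475 with the antibody and 757, 665 and 608 with isotype. The 6 libraries with IL-33 were below the other 6 by a wide gap, with log2 fold changes of -1.72 (SE 0.212) for IL-33 against isotype and -1.28 (SE 0.211) for both stimuli against the antibody. Fbxl20, another F-box substrate receptor, had 1186, 779 and 703 with both stimuli, 1257, 1124 and 1576 with IL-33, 1842, 1871 and 2148 with the antibody and 2741, 2062 and 2607 with isotype. Of 52 tested F-box genes these 2 were called lower with IL-33 and none higher. With both stimuli against the antibody 3 were called lower, with Fbxo32 as the third, and Fbxl15 was called higher. Klhl6 and Klhl24, cullin-3 adaptors, the ubiquitin ligase Rnf125, the VCP-interacting protein Svip and Zfand4 were the others.

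Transcription and chromatin genes numbered 12, of which 3 were called lower with IL-33 and 9 with both stimuli against the antibody. Padi4 (chromosome 4, 140745865 to 140774236 in the mm10 coordinates of the authors' table), which citrullinates histones and takes part in the release of extracellular DNA traps by neutrophils, had 1463, 1611 and 1605 normalized counts with both stimuli and 2136, 1397 and 2393 with IL-33. It had 3639, 2989 and 2729 with the antibody and 5204, 4414 and 3608 with isotype, and no library with IL-33 reached one without. Thra, a thyroid hormone receptor, had 23.3, 48.5 and 30.7 with both stimuli, 59.9, 39.8 and 56.5 with IL-33, 94.6, 63.4 and 71.9 with the antibody and 133, 127 and 128 with isotype. Its call with IL-33 had an adjusted p = 0.0511 in edgeR with the replicate block. The antibody libraries of Thra lay wholly between those with IL-33 and the isotype ones. Crtc1, a coactivator of CREB, had 653, 585 and 456, 821, 622 and 1154, 1320, 1167 and 1432 and 1597, 1203 and 1559 in the same order of groups. Ikzf2 (Helios), Zbtb16 (PLZF), Zfp652, Zfp395, Zfp101, Tbx6, Crebrf, Samd11 and Bahcc1 were the rest. Of 351 tested zinc finger genes, 1 was called lower (0 with the replicate block) and 3 higher with IL-33. With both stimuli against the antibody 9 were called lower and 2 higher. Over all genes tested 0.749% were called lower and 1.46% higher with IL-33, and 1.72% and 2.7% with both stimuli against the antibody.

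Among 9 kinases, phosphatases and adaptors, 5 were called lower with IL-33 and 8 with both stimuli against the antibody. Sgk1, the serum- and glucocorticoid-regulated kinase, had 363, 559.8 and 395 normalized counts with both stimuli, 403, 303 and 557 with IL-33, 878, 801 and 866 with the antibody and 1083, 1067 and 986 with isotype. Frat1 and Frat2 encode inhibitors of the kinase GSK3 and lie 13389 bases apart on chromosome 19. Frat1 had 176, 169 and 135 with both stimuli, 199, 235 and 206 with IL-33, 528, 344 and 362 with the antibody and 504, 496 and 545 with isotype. Frat2 had 121, 262 and 147, 173, 233 and 181, 339, 289.5 and 405 and 565, 519.7 and 539 in the same order, so the pair was low together. Both genes kept the libraries with IL-33 below those without. Rassf3, Grb7, Adcy4, Mylk3 and the cell cycle phosphatases Cdc14b and Cdc25b made up the group.

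Of 13 small GTPase and membrane traffic genes, 0 were called lower with IL-33, or 1 (Rasa3) with the replicate block, and 6 with both stimuli against the antibody. The GTPase-activating protein Rasa3, which turns off Ras and Rap1, had 3356, 2039 and 1856 normalized counts with both stimuli, 2806, 2123 and 2876 with IL-33, 5496, 4421 and 5379 with the antibody and 5043, 3660 and 4836 with isotype. Arhgef18, a guanine nucleotide exchange factor, had 626, 394 and 451 with both stimuli, 725, 626 and 1259 with IL-33, 1514, 1230 and 1048 with the antibody and 1819, 1398 and 1413 with isotype. Library 3 with IL-33 reached the antibody range for Arhgef18, and the libraries with both stimuli stayed below it. Rab3d, a GTPase of secretory granules, had 599, 853 and 591, 819.9, 527 and 1197, 1378, 1102 and 1371 and 1555, 1658 and 1480 in the same order. Other members of the group were Arhgap18, Arhgef4, Tbc1d2, Rab11fip5, Agfg2, Iqgap2, Reps2, Ap3m2, Vopp1 and Mctp2.

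Cytoskeletal and structural proteins included genes better known from epithelia. Krt80, a keratin, was among the 8 most abundant members, with 871, 935 and 254 normalized counts with both stimuli, 1056, 359 and 1901 with IL-33, 2130, 1805 and 2449 with the antibody and 2917, 3676 and 3716 with isotype. Library 3 with IL-33 reached into the antibody range, and Krt80 was called in neither arm. Ivl, the cornified envelope protein involucrin, had 94.3, 30.0 and 16.8 with both stimuli, 124, 76.3 and 61.2 with IL-33, 188, 184 and 144 with the antibody and 160, 159 and 133 with isotype. Its values were lower with both stimuli than with the antibody in every library. Espn, an actin-bundling protein, had 74, 26.6 and 72.6, 61.7, 79.5 and 122, 217, 179 and 148 and 174, 247 and 145 in the same order. Of the 11 genes, 2 were called lower with IL-33 (Spire2, an actin nucleator, and the membrane protein Palm) and 5 with both stimuli against the antibody. Krt18, Nav1, Baiap2, Mtus1, Cep164 and Tctn1 were the others.

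Ion transport and membrane carriers numbered 9, of which 1 was called lower with IL-33, or 4 with the replicate block (Atp2a1, Cacna2d2 and Cnnm2 in addition), and 4 with both stimuli against the antibody. Cnnm2, a magnesium transport protein, had the lowest ratio of both stimuli over the antibody, 0.224. It had 64.9, 23.1 and 67 normalized counts with both stimuli, 79, 65.6 and 63.1 with IL-33, 367, 208 and 119 with the antibody and 327, 157 and 151 with isotype. Library 1 was far above libraries 2 and 3 in both groups without IL-33, and the groups with IL-33 lay below all of them. Spns3, a sphingolipid transporter-like protein, was the member called with IL-33 without the block, at 689, 949.9 and 940.2 with both stimuli, 974, 1012 and 1239 with IL-33, 1774, 1522 and 1895 with the antibody and 2138, 1919 and 2066 with isotype. Atp8b5, a flippase subunit, had 14.2, 86.6 and 36.3, 47.2, 16.1 and 86.6, 131, 85.2 and 134 and 159, 159 and 140.2 in the same order and overlapped between both stimuli and the antibody. Atp2a1, the calcium channel subunits Cacna2d2 and Cacnb1, Tmc6 and Slc35e3 were also in the group. Slc35e3 was the only member among 217 tested solute carriers, of which 2 were called lower and 8 higher with IL-33. Over all genes tested 0.749% were called lower and 1.46% higher.

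Metabolic enzymes were the largest group with 18 genes, of which 5 were called lower with IL-33, or 9 with the replicate block, and 11 with both stimuli against the antibody. Dck, deoxycytidine kinase of nucleoside salvage, had 481, 487 and 456 normalized counts with both stimuli, 355, 379 and 487 with IL-33, 957, 709 and 811 with the antibody and 1155, 1035 and 898 with isotype. The 6 libraries with IL-33 all lay below the 6 without. Cpt1a, the carnitine palmitoyltransferase that admits long-chain fatty acids to mitochondria, had 789, 763 and 553 with both stimuli, 812, 599.7 and 1314 with IL-33, 2019, 1352 and 1358 with the antibody and 1986, 1182 and 1508 with isotype. Its highest IL-33 library lay above the lowest isotype library. Of 21 tested genes of mitochondrial fatty acid oxidation, Eci2 was the only one called lower with IL-33 (adjusted p = 0.0600 in edgeR with the replicate block), and with both stimuli against the antibody Cpt1a was called lower and Acadl higher. Bckdha, a subunit of branched-chain ketoacid dehydrogenase, had 80.1, 69.2 and 62.4, 73.5, 68.8 and 76.3, 140.4, 136 and 154 and 158, 153 and 151 in the same order, with little spread within groups. Dhrs3, a retinaldehyde reductase, had 48.7, 45 and 56.8 with both stimuli, 69.9, 74.2 and 86.6 with IL-33, 135, 92.9 and 215 with the antibody and 121, 163 and 255 with isotype. The others were Crot, Pdk2, D2hgdh, Pgam2, Nqo2, Cbr1, Fmo5, Pcyox1, the lipoxygenase Alox12e, the diacylglycerol lipase Daglb, Manba, Ganc and G0s2, an inhibitor of adipose triglyceride lipase.

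Mitochondrial maintenance held 7 members, none called lower with IL-33 (Atp23 was with the replicate block) and 2 (Sirt3 and Lyrm9) called lower with both stimuli against the antibody. Pink1, the kinase that marks damaged mitochondria for removal, had 529, 881 and 435 normalized counts with both stimuli, 634, 649 and 1072 with IL-33, 908, 1276 and 898 with the antibody and 1117, 2014 and 1085 with isotype. Library 2 was high in 3 of the groups, so that its groups nearly met. Sirt3, a mitochondrial deacetylase, had 102, 88.9 and 83.8, 103, 120.4 and 122, 150.2, 182 and 203 and 229.5, 158 and 219 in the same order. Aifm3, Atp23, Sfxn5, Lyrm9 and Cdk5rap1 were the remaining genes. Fanca, a core protein of the Fanconi anemia pathway of DNA crosslink repair, was the only member among 33 tested DNA repair genes. It had 598, 586 and 559.5 with both stimuli, 755, 620.1 and 1125 with IL-33, 1454, 1560 and 1518 with the antibody and 1707, 1242 and 1463 with isotype. The libraries with both stimuli agreed closely and lay below each IL-33 library. With both stimuli against the antibody Xpc was called lower besides Fanca, and none of the 33 was called higher in either arm.

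No role was assigned to 13 members. Tmem71, a transmembrane protein, was the most abundant gene of the whole set and had 2526, 2426 and 2198 normalized counts with both stimuli, 2412, 2154 and 3083 with IL-33, 5257, 4080 and 5037 with the antibody and 5930, 4512 and 5619 with isotype. Fam117a had 365, 419 and 424 with both stimuli, 392, 432 and 615 with IL-33, 823, 789 and 1064 with the antibody and 1236, 1371 and 1334 with isotype. For both genes every library with IL-33 lay below every library without. Mturn had 33.5, 24.2 and 46.5, 73.5, 111 and 95.1, 158, 133 and 89 and 243, 173 and 194 in the same order, with IL-33 and antibody libraries overlapping. Tmem119, Pcmtd2, Tcp11l2, Fam174b, Ankrd13d, A430078G23Rik, Ccdc125, Gm10521, Ccm2l and Fam102b were the others.

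Several lists of related genes held no member as written. Of 30 tested genes linked to quiescence and FOXO-related growth restraint, 2 were called lower with IL-33 (4 with the replicate block) and none higher, namely Cdkn1b, an inhibitor of cyclin-dependent kinases, and Pik3ip1, an inhibitor of PI3K. Cdkn1b averaged 3131 normalized counts with both stimuli, 3336 with IL-33, 4975 with the antibody and 6044 with isotype, so that it met the first ratio of the rule and not the second. With both stimuli against the antibody 4 were called lower, namely Cdkn1b, Irs2, Mxd4 and Sesn1. The 28 phosphoinositide and PI3K genes tested had 0 calls with IL-33, or 1 higher with the replicate block, and 2 lower calls with both stimuli against the antibody. Of 23 chemoattractant and lipid mediator receptors tested, a list that does not hold the member Ltb4r2, S1pr4 was called lower in both arms and C5ar2 with both stimuli against the antibody. The 16 tested circadian clock genes had no call in either arm. The list medians for IL-33 against isotype ran from -0.31 to 0.22 on the log2 scale, against -0.01 over all genes tested and -0.97 for the members.

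The antibody alone was not used as a contrast by the rule, but both of its groups enter the rule as denominators. Isotype alone also carries the minimum of 100 counts. The counts below are therefore not independent of the rule and are given as a description. In edgeR's quasi-likelihood test no member was called with the antibody against isotype at an adjusted p under 0.05, and 0% of all genes were called lower. At an unadjusted p under 0.05, 17 members were lower, against 0.956% of all genes, and 0 were higher. The mean was lower with the antibody for 108 members, against 47.8% of expressed coding genes. The libraries did not overlap for 39 of them, against 6.58% of expressed coding genes. The median log2 fold change was -0.28 for members and 0.00 for expressed coding genes. The ratio of means ran from 0.412 to 1.20.

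The member with the smallest p for the antibody alone was Cacna2d2, an auxiliary subunit of voltage-gated calcium channels. It had 86.8, 102 and 139 normalized counts with the antibody and 259, 245 and 291 with isotype, without overlap. Its edgeR log2 fold change was -1.28 (SE 0.369, adjusted p = 1). Fam117a differed by -0.57 (SE 0.185) and Frat2 by -0.66 (SE 0.248), and neither passed the adjustment. Padi4 differed by -0.51 (SE 0.203), Thra by -0.76 (SE 0.296) and Cacnb1 by -0.58 (SE 0.221), with adjusted p = 1 in edgeR for each. The next genes were Pcmtd2 at -0.48 (SE 0.190) and Iqgap2 at -0.70 (SE 0.282).

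**Figure D4:**
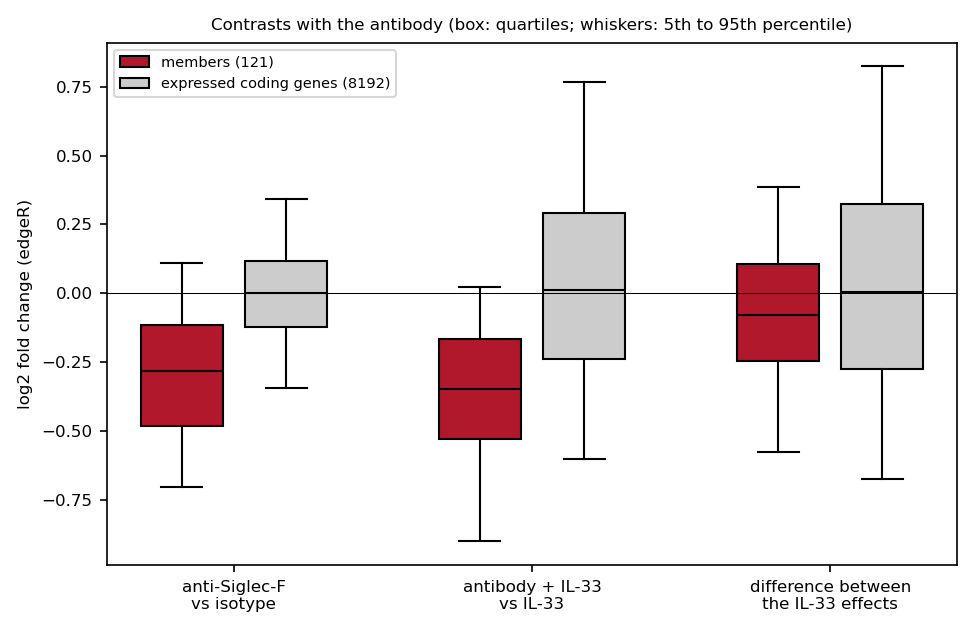
Boxes show the quartiles and whiskers the 5th to 95th percentiles of edgeR log2 fold changes for the 121 members (red) and the 8192 expressed coding genes (grey). The member medians are -0.28 for the antibody against isotype, -0.35 for both stimuli against IL-33 and -0.08 for the difference between the IL-33 effects, against 0.00, 0.01 and 0.01 for expressed coding genes.

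Adding the antibody to IL-33 compares groups that both enter the rule as numerators, so the member counts are given as a description. No member was called with both stimuli against IL-33 at an adjusted p under 0.05 in edgeR, where 0% of all genes were called lower. Without library 1 of both stimuli, 13 members were called lower, as were 1000 of all 15278 genes tested then. At an unadjusted p under 0.05, 23 members were lower, against 7.12% of all genes. The mean was lower with both stimuli for 109 members, against 48.3% of expressed coding genes, and the libraries did not overlap for 12, against 5.26%. The median log2 fold change was -0.35 for members and 0.01 for expressed coding genes. Without libraries 2 and 3 of both stimuli the member median was -0.20, with 0 members called and 12 lower at an unadjusted p under 0.05.

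Mturn, named for a role in neural maturation in frogs, differed most between both stimuli and IL-33. Its values of 33.5, 24.2 and 46.5 with both stimuli lay wholly below those of 73.5, 111 and 95.1 with IL-33, for a log2 fold change of -1.42 (SE 0.306, adjusted p = 0.191 in edgeR). Cacnb1, a beta subunit of voltage-gated calcium channels, had 62.9, 50.8 and 71.7 normalized counts with both stimuli and 101, 154 and 105 with IL-33, again without overlap. It differed by -0.96 (SE 0.230, adjusted p = 0.191 in edgeR). Cdc14b had 197, 84.3 and 105 with both stimuli and 298, 175 and 318 with IL-33, and its log2 fold change was -1.04 (SE 0.315). Arhgef18 differed by -0.84 (SE 0.259), Crtc1 by -0.63 (SE 0.217), Fbxl20 by -0.58 (SE 0.203), Pcyox1 by -0.84 (SE 0.297) and A430078G23Rik by -0.90 (SE 0.303), and none passed the adjustment. Mettl7a1 and Fbxo31 were at nearly the same mean in both groups, with log2 fold changes of -0.12 (SE 0.243) and -0.01 (SE 0.211).

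In the order of group means, 98 members ran from isotype at the top through the antibody and IL-33 to both stimuli at the bottom. The lowest mean was with both stimuli for 109 members and with IL-33 for 12. The highest was with isotype for 108 and with the antibody for 13. The rule fixes isotype above IL-33 and the antibody above both stimuli, and it sets no direct condition on the order within a side. All 4 groups enter the rule and its minimum count applies to isotype alone. The order within a side is thus not independent of the rule and is a description. The antibody and isotype, and both stimuli and IL-33, were not told apart by the adjusted test for any single member, and the antibody against IL-33 was not tested.

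Whether the IL-33 effect itself differed with the antibody present was tested as the difference between the 2 log2 fold changes. Both of these effects enter the rule, which holds each at a ratio of 0.6 or less and so limits how far they can differ, and nothing is read from the counts below. No member was called in either direction at an adjusted p under 0.05 in edgeR, and 0% of all genes were called lower. At an unadjusted p under 0.05, 0 members were lower, against 2.85% of all genes, and 1 was higher, against 5.06%. That gene was Dck, with a difference of 0.54 (SE 0.238, adjusted p = 0.583 in edgeR). Fanca had a difference of -0.56 (SE 0.277), Mturn of -0.72 (SE 0.414), Ivl of -1.08 (SE 0.638) and Fbxo31 of 0.45 (SE 0.294), none of them past the adjustment. The median over members was -0.08. It ran from -0.20 without IL-33 library 2 to 0.12 without IL-33 library 3 when 1 library was left out, and was 0.08 without libraries 2 and 3 of both stimuli. With standard errors of this size, these values do not show that the effects were alike.

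The members lay on every autosome except 12, and 1 was on the X chromosome. Chromosome 11 held 15 of them, 12.4% against 8.81% of expressed coding genes. Pairs of members lay within 100 kb of each other in 8 cases, among them Frat1 with Frat2, Fanca with Spire2, Fbxl20 with Cacnb1 and Ltb4r2 with Adcy4. Arhgef18 and A430078G23Rik lay 2707 bases apart, and Sfxn5 and Rab11fip5 1540 bases apart. In all, 57 members overlapped another gene, and for 21 that gene's total was at least 0.1 of their own. For 19 of these it was on the opposite strand, as with Fanca and Zfp276, Krt80 and Gm35853, Iqgap2 and F2rl2, Daglb and Rac1, Trim14 and Nans, and Sirt3 with Ric8a and Psmd13. Overlap here is of whole gene spans, introns included, and shared exons were not checked. The strand setting of the counting is not given in the sources used here either. How far reads of such pairs mix was not tested.

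Gene structure is given by medians, with no test. The members' median gene length in the authors' file was 4690 bases against 4660, and their median genomic span 31700 bases against 24100. By the longest coding transcript in GENCODE M21, the coding sequence had a median length of 1580 bases against 1410 and a median GC content of 55.6% against 52.6%. For 115 members with an annotated 3′ UTR, its median length was 1120 bases against 1040 and its GC content 47.4% against 44.8%. The pentamer ATTTA, part of AU-rich elements that speed mRNA decay, occurred at a median of 0.889 per kilobase of 3′ UTR in members and 1.29 in expressed coding genes. The AU-rich nonamer, searched by name on the transcript's strand, occurred in 14 of 115 members, 12.2%, against 16.4% of expressed coding genes.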

How the data were processed

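The authors deposited raw read counts per gene and normalized counts, a signal made by dividing the counts by 1 size factor per library, as the values show. Dividing by the smallest step gave whole reads for 100% of nonzero values within a relative tolerance of 1e-06, all equal to the deposited counts, and the count test on these recovered reads (an alternative chosen once the values were known) called the same 35 members for IL-33 against isotype. Per the submitters' processing notes, the tools included STAR 2.6.1d and featureCounts 1.5.0-p3, with fastp, DESeq2 and FastQC 0.11.8, and the build was mm10. Which annotation release and strand setting the counting used is not given here. Depth was 11686603 to 17137988 counts per library, and no pair of libraries of a group agreed within sampling noise.

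Members were found on the normalized counts. Every test was edgeR 4.0.16's quasi-likelihood F test in R 4.3.3 on the deposited counts, fitted once to all 12 libraries without a replicate block, after filterByExpr by group and TMM scaling. Benjamini-Hochberg adjustment ran over the 14547 genes tested, and calls are at an adjusted p under 0.05. Standard errors were derived from each fold change and its F value. Alternatives were DESeq2 1.42.0, limma 3.58.1 (voom with quality weights), RLE scaling, no filter, only the groups compared, the replicate block and left-out libraries. CPM were computed from the counts with TMM factors. Promoters are RefSeq's on GRCm38.p6 and transcripts GENCODE M21.

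Members and lists were chosen with earlier results of these data known. Named genes are the 12 lowest members in each ratio, the 8 most abundant, the 8 with the smallest p in each of the 3 comparisons that are not themselves ratios of the rule, those nearest the thresholds, and members of the lists and families. Other members were named for their role after their values were seen, and a few members and 1 gene family are not reported here. Equal replicate numbers in the labels were taken as pairing the libraries for IL-33 against isotype, where deviations from group means correlated at 0.272, 0.288 and 0.186, all above the 0.1 required. The labels do not state such a pairing. The reported values do not use it, and no paired fit of these groups alone was run.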

Additional observations from a re-analysis of the deposited data

How the results depend on the processing

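Of 800 alternative values for 57 gene results, 671 stayed in direction and on their side of the threshold, 52 newly passed it, 77 no longer did and 0 reversed. The 35 members called lower with IL-33 against isotype became 83 with DESeq2, 114 with voom and 95 without the low-count filter. In these settings 346, 1087 and 263 of all genes were called lower, against 109 in the reported fit. The 35 ran from 9 to 67 when 1 library was left out, where 19 and 181 of all genes were called lower. The 71 for both stimuli against the antibody became 37 with voom, 24 with only the groups compared and 8 without libraries 2 and 3 of both stimuli, and ran from 13 to 88. The 107 for both stimuli against isotype became 36 without those libraries and ran from 66 to 110. Of all genes, 250 were called lower for both stimuli against the antibody in the reported fit. They numbered 145 with voom and 47 with only the groups compared, 26 at the 13 and 1429 at the 88. For both stimuli against isotype 641 were called lower in the reported fit, 186 at the 66 and 1404 at the 110. The 8 and the 36 rest on 1 library of both stimuli, with member medians of log2 fold change of -0.98 and -1.29. For the antibody against isotype the count of 0 became 1 with voom, 1 without the filter and 1 with only the groups compared. In these settings 2, 10 and 4 of all genes were called lower. The count stayed 0 in DESeq2, where 1 of all genes was called lower, and with each library left out. For both stimuli against IL-33 the count of 0 became 3 with DESeq2 and 10 without the filter, where 89 and 269 of all genes were called lower, and ran from 0 to 13, the last without library 1 of both stimuli, where 1000 of all genes were called lower. The difference between the IL-33 effects had 0 calls in every setting run. The cause of these moves was not tested.

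The set of 121 genes became 38 at a ratio of 0.5 and 300 at 0.7, ran from 79 to 172 with 1 library left out, and numbered 130 on CPM. With the replicate block, fitted to all 12 libraries at once, the count was 44 for IL-33 against isotype, 30 of them shared with the 35. It was 69 for both stimuli against the antibody, 109 for both stimuli against isotype and 0 in the other comparisons. For both stimuli against the antibody the same-numbered libraries correlated at 0.129, 0.0427 and 0.264, so they were not taken as paired there.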
